A study of Arabidopsis thaliana with 6 samples.

Results

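The comparison described here set 1 array of AtrbohB mutant seedlings kept at 40 °C against 1 array of wild-type seedlings kept at 40 °C, out of the 6 ATH1 arrays of the series. Its members were the probe sets with a deposited signal of at least 55 on 1 or both of these arrays, which took in 10519 of 22746 probe sets once 64 control probe sets were left out. A probe set is a group of short oligonucleotides that together measure 1 transcript, or several similar ones. The platform annotation listed exactly 1 gene for 5471 of the members, and these covered 5432 genes. The series asks how the respiratory burst takes part in the tolerance of plants to heat. It holds wild type and mutant at 20, 30 and 40 °C, with 1 array for each combination.

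Wild type was the Col-0 accession of Arabidopsis thaliana, from stock N1092. The mutant was 1 line, AtrbohB, with a dSpm transposon in At1g09090 in the Col-0 background, and all its differences from wild type therefore rest on that line. Seedlings of both were raised on MS medium in a growth room with 16 hour days. For the treatment they were floated on distilled water at 20, 30 or 40 °C, blotted and frozen. Each sample pooled 90 plants. The age of the seedlings and the length of the treatment are not given in the sources used here. The mutant sample at 40 °C is marked as a repeat in its title, and what was repeated is not said. With 1 array a side there are no replicates and no test, and all differences below are given by size. The mutant and wild-type arrays at 20 °C, and those at 30 °C, gave a scale of how far 2 arrays differed without 40 °C being involved. Pairs of signals below give wild type first and the mutant second.

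Respiratory burst oxidase homologues are NADPH oxidases of the plasma membrane that pass electrons to oxygen outside the cell and so produce superoxide, which is turned into hydrogen peroxide. Their amino-terminal part carries EF hands, calcium-binding folds, and calcium entry and oxidase activity are known to amplify each other in plant stress signalling. Heat also sets off the heat shock factors, which turn on small heat shock proteins and other chaperones. Many genes that respond within minutes to wounding, elicitors or touch, such as calmodulin-like calcium sensors, AP2/ERF factors and U-box ubiquitin ligases, lie downstream of calcium and reactive oxygen in textbook schemes.

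The 6 arrays had the same trimmed mean signal of 100 and median signals of 38.5 to 44.0. At 40 °C, 22.9% of probe sets on the wild-type array and 23.2% on the mutant array lay at or under the floor of 13.7 used below. The 9 hybridisation spike-in probe sets, bacterial and phage control RNAs added to the labelled sample, were higher on the mutant array in 9 of 9 cases at 40 °C (median log2 difference 0.59), in 9 of 9 at 30 °C (0.79) and in 8 of 9 at 20 °C (0.30). The ratio of 3′ to 5′ signal at 40 °C, wild type first, was 1.33 and 1.35 for GAPDH, 2.59 and 2.58 for ubiquitin, and 4.27 and 3.29 for actin. The mutant array at 40 °C also had the most outlier cells in its scan, 1163, against 372 for wild type at 40 °C and 299 to 754 on the others. The part of these array properties in the differences below was not tested. No probe set was annotated for At1g09090, so the level of the disrupted gene was not analysed here. Root and leaf genes both gave signal: the root beta-glucosidase PYK10 had signals of 849.8 and 789.9 at 40 °C, and the Rubisco activase RCA had 3828.8 and 3829.1. In RNA of whole seedlings, fewer cells of a type and less RNA per cell cannot be told apart.

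At 40 °C, differences of at least 2-fold between mutant and wild type were mostly on the lower side. Differences were taken as mutant minus wild type on the log2 scale, after signals under 13.7 had been raised to that floor. In the mutant, 106 of 10519 members were at least 2-fold lower (1.01%) and 19 were at least 2-fold higher (0.181%). By the same rule at 20 °C, 12 of 10206 probe sets were lower (0.118%) and 18 higher (0.176%). At 30 °C, 10 of 10004 were lower (0.100%) and 9 higher (0.0900%). The count of higher probe sets at 40 °C was thus close to that at 20 °C, and the count of lower ones stood apart from both cooler pairs. Counted over genes with 1 probe set each, 43 of 5432 were lower (0.792%) and 12 higher (0.221%).

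The middle of the distribution did not show this shift. The median difference was 0.01 at 40 °C and -0.01 at both 20 and 30 °C. The SD over probe sets was 0.32 at 40 °C, against 0.22 and 0.24 in the 20 and 30 °C pairs. The 1st percentile lay at -1.01 at 40 °C, against -0.55 at 20 °C and -0.67 at 30 °C. The 99th percentile was 0.71, against 0.62 and 0.53. The lower tail was therefore the side on which the 40 °C pair differed most from the other pairs. The edges of the rule were sharp only by definition. AT3G25580, with 77.3 and 38.3, counted as lower, and AT4G37240, with 103.0 and 51.8, did not. AT3G58550, with 57.2 and 117.0, counted as higher, and AT4G28240, with 98.1 and 194.0, did not. AT3G07140, with 24.1 and 53.9, was beyond 2-fold but just under the signal minimum.

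**Figure D1:**
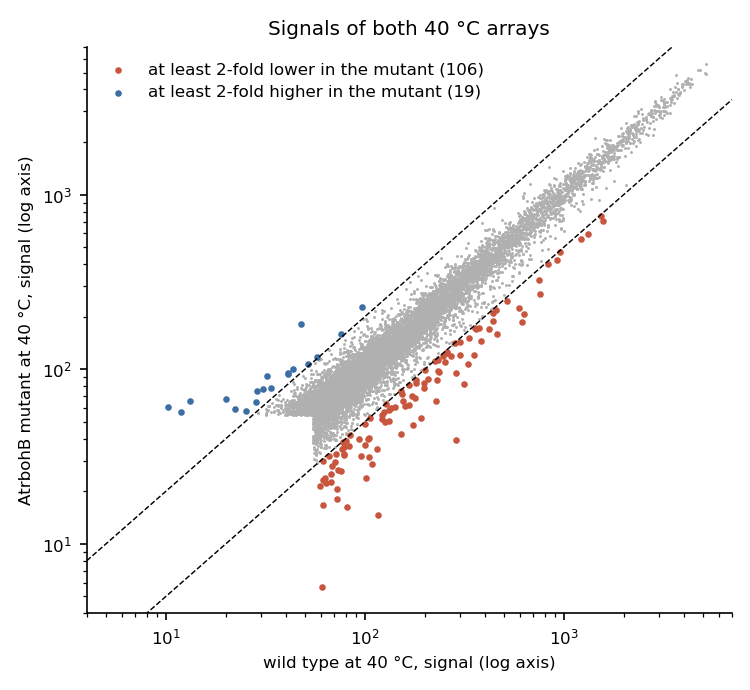
Signal of each of the 10519 members on the wild-type array (x axis, log scale) and the AtrbohB array (y axis, log scale) at 40 °C, with dashed lines at 2-fold. The 106 probe sets at least 2-fold lower in the mutant spread from low signal up to 1574.1 on the wild-type array, on which members reach 5184.8. The 19 higher ones sit at low signal.

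The lower probe sets were not only faint ones. Members were split by the higher of their signals on the 2 arrays. Among the 4320 members between 55 and 110, 36 were lower and 15 higher at 40 °C. Between 110 and 220, 28 of 3062 were lower and 3 higher. Between 220 and 440, 26 of 1636 were lower, or 1.59%, and 1 was higher. At 440 and above, 16 of 1501 were lower, or 1.07%, and 0 were higher. In these top classes the cooler pairs held 0 lower probe sets: 0 of 1776 and 0 of 1494 at 20 °C, and 0 of 1647 and 0 of 1568 at 30 °C. For the higher side, by contrast, 15 of the 19 probe sets were in the faintest class, where the 20 °C pair had 14 and the 30 °C pair 7.

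**Figure D2:**
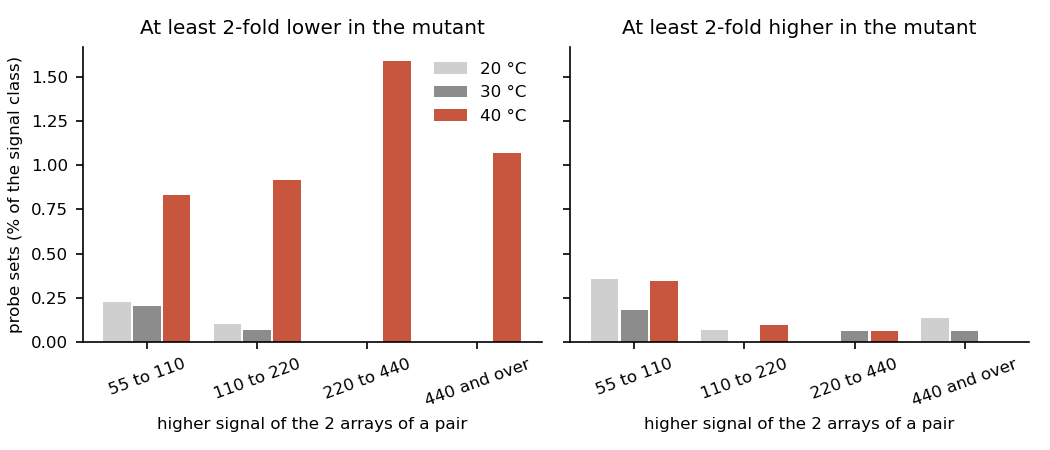
Share of probe sets at least 2-fold lower (left) or higher (right) in the mutant, in percent of the probe sets of each signal class, for the pairs of arrays at 20, 30 and 40 °C. From 220 upward, lower probe sets were found at 40 °C and not at 20 or 30 °C, whereas higher ones were concentrated in the faintest class at 20, 30 and 40 °C.

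Calcium sensor genes led the named genes on the lower side. The 15 genes named here were those with the largest difference at 40 °C among genes that differed more at 40 °C than at 20 and 30 °C. CML37, a calmodulin-like protein, had 6.1 and 0.5 at 20 °C, 16.7 and 17.8 at 30 °C, and 81.1 and 16.3 at 40 °C. Only the wild-type array at 40 °C stood well above the floor, and the mutant was 4.98-fold lower there. AT3G01830, of the same family, had 1.6 and 6.6 at 20 °C, 32.0 and 46.0 at 30 °C, and 60.9 and 5.7 at 40 °C. The mutant lay under the floor at 40 °C, so that the difference was at least 4.45-fold, although at 30 °C it had been the higher of the pair. CML38, the brightest of these, had 10.6 and 9.6 at 20 °C, 117.1 and 129.7 at 30 °C, and 316.1 and 82.1 at 40 °C, which is a difference of 3.85-fold. Wild type was higher at 40 than at 30 °C, whereas the mutant was lower. AT5G39670, an EF-hand protein, had 59.2 and 21.5 at 40 °C, a log2 difference of -1.46, and -0.55 at 20 °C.

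Over the 14 measured calmodulin-like genes, those with a probe set annotated for that gene alone, 10 were below 0 at 40 °C, 3 above and 1 equal. This list, like the others below, was chosen with earlier results of these data known, so that its counts are a description. Over all 13355 measured genes, 4914 (36.8%) were below 0, 5305 above and 3136 equal, since signals that are both under the floor count as equal. Over the 5432 past the signal minimum, 46.7% were below 0. The median of the 14 was -0.25, against 0.00 over all measured genes. Of the 14, the 4 genes above were the ones at least 2-fold lower, and 0 were 2-fold higher. Of all 13355 measured genes, 98 were 2-fold lower and 56 higher. Of these 4, CML37, AT3G01830 and AT5G39670 passed the minimum through the wild-type array alone, so that they had to be lower to be counted. CML38 passed on both arrays, as did 5 others that lay between -0.31 and -0.08. Among those 5, CML23 had 214.6 and 172.7, and CML42 had 99.1 and 90.7. Of the faint genes under the minimum, CML41, CML43 and CML30 were at 0.30, 0.10 and 0.06, AT3G47480 was at -0.29 and AT1G76640 was equal. Also on the calcium side was AT5G66650, of the mitochondrial calcium uniporter family, with 131.7 and 133.2 at 30 °C and 151.9 and 42.6 at 40 °C, a difference of 3.57-fold. The 7 measured genes of the calcium kinase and transport list, all glutamate receptor-like channels, were faint and pointed both ways, with 2 below 0, 3 above and 2 equal. GLR3.3 and GLR3.6, at 0.57 and 0.49, passed the signal minimum through the mutant array alone, while GLR1.4 and GLR3.5, under the minimum, had -0.47 and -0.51.

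Some genes for stress-inducible transcription factors were lower as well. Of the 13 measured AP2/ERF, WRKY and zinc finger genes, AT1G77640, AT5G52020 and STZ were at least 2-fold lower, against 98 of all 13355 measured genes. These lists too were chosen with earlier results known, and the count is a description. AT1G77640, an AP2/ERF factor, had signals of 22.8 and 31.6 at 20 °C, 130.4 and 139.9 at 30 °C, and 191.2 and 52.7 at 40 °C in wild type and mutant. The mutant was slightly the higher at both cooler temperatures and 3.63-fold lower at 40 °C. AT5G52020, of the same family, had 142.0 and 60.9 at 40 °C (log2 difference -1.22). For ORA47, an AP2/ERF activator of jasmonate synthesis, the signals were 319.6 and 173.6 (-0.88), and AT1G19210 had 74.9 and 50.6 (-0.57). AT1G77640 and AT1G19210 passed the signal minimum through the wild-type array alone. The remaining AP2/ERF gene measured, AT5G61890, was under the minimum, with 48.9 and 47.3. The median of the 5 was -0.88, against 0.00 over all measured genes. STZ, a zinc finger repressor of stress responses also known as ZAT10, had 171.6 and 58.9 at 20 °C, 183.4 and 257.4 at 30 °C, and 1326.7 and 596.4 at 40 °C. It was 2.22-fold lower in the mutant at 40 °C and lower by still more at 20 °C (-1.54), while the order was turned at 30 °C (0.49). The 6 measured WRKY genes lay on both sides, 2 below 0, 3 above and 1 equal, with WRKY22 at -0.54, WRKY47 at 0.22 and WRKY20 at 0.06. The largest WRKY difference, -0.77, was that of WRKY53, which was under the signal minimum with 45.3 and 26.6.

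Ubiquitin ligases of the U-box class, known for limiting defence and drought responses, had 9 measured genes, of which 5 were below 0 at 40 °C, 2 above and 2 equal. Past the 2-fold mark were PUB23 and PUB22, both on the lower side, where 98 of all 13355 measured genes lay. As the list was chosen with earlier results known, this count is a description. PUB23 had 81.3 and 65.2 at 20 °C, 158.8 and 141.1 at 30 °C, and 288.2 and 94.8 at 40 °C in wild type and mutant, a difference of 3.04-fold at 40 °C. Its close relative PUB22 had 51.2 and 50.2, 133.3 and 112.8, and 131.9 and 58.2, which is 2.27-fold at 40 °C. For this pair the wild-type array was the higher at every temperature, by far the most at 40 °C. PUB25 and PUB26 both had -0.75, and PUB19 had -0.61; PUB25, with 60.3 and 35.8, passed the signal minimum through wild type alone. The 4 genes under the minimum were at or above 0, with PUB43 at 0.22 and PUB24 at 0.05. The median of the 9 was -0.61.

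The other named genes on the lower side came from several families. AT3G02840, an armadillo-repeat protein of an elicitor-responsive family, had 47.9 and 60.5 at 30 °C but 105.2 and 31.5 at 40 °C, 3.34-fold lower. AT1G74450 had 173.8 and 183.7 at 30 °C and 629.1 and 206.2 at 40 °C, 3.05-fold lower. For both genes the mutant array was the higher one at 30 °C and the far lower one at 40 °C. At 20 °C the mutant was also the lower one, with differences of -0.43 and -0.09, and its AT3G02840 signal was then under the floor. AT4G15680, a glutaredoxin, which is an enzyme of thiol redox reactions, had 96.1 and 31.9 at 40 °C (3.01-fold), with differences of -0.32 and -0.26 at 20 and 30 °C. AT2G27080, of the late embryogenesis abundant hydroxyproline-rich family, had 462.0 and 159.6 (2.89-fold). The remaining members of the 15 were AT5G58120, a TIR-type resistance protein with 104.6 and 40.2, and AT5G38700 and AT1G15010, with log2 differences of -1.40 and -1.38.

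EXLA1, an expansin-like wall protein, followed another course. Its signals were 112.1 and 117.8 at 20 °C, 1342.6 and 1809.8 at 30 °C, and 75.9 and 26.1 at 40 °C. Both genotypes were thus lower at 40 than at 20 °C, and the mutant lay 2.91-fold below wild type. EXO, a growth gene of brassinosteroid signalling, had 115.0 and 60.9 at 40 °C (-0.92), after 2600.0 and 3103.8 at 30 °C. The xyloglucan-modifying enzymes XTH16 and XTH18 had -0.81 and -0.65. The wall list held genes on both sides of 0. Of its 28 measured members, 14 were below 0, 8 above and 6 equal, with a median of -0.01, while 36.8% of all measured genes were below 0. Signal minimum passed, 10 members were left. Of these, 5 were below 0 and 5 above, with EXPB1 at 0.55 and EXPA15 at 0.51, and the median was 0.00. EXLA1 and XTH16 passed through the wild-type array alone, and EXPB1 through the mutant array alone. The 4 named genes below 0 were also the 4 of the 10 with a higher signal at 30 than at 20 °C in both genotypes.

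**Figure D3:**
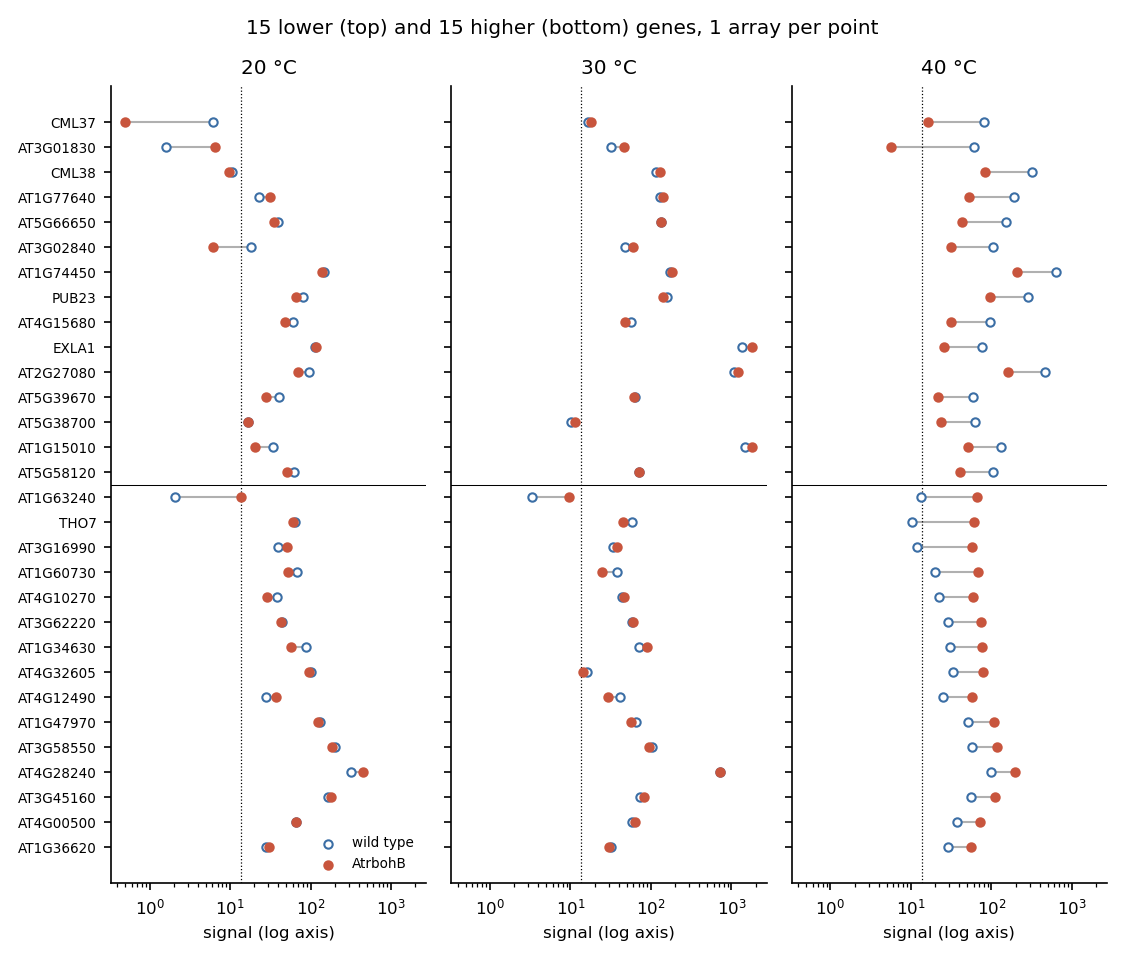
Signals of the 15 lower (top) and 15 higher (bottom) named genes on the 6 arrays, on a log axis, with 1 point per array (open, wild type; filled, AtrbohB), a grey line joining the pair and a dotted line at the floor of 13.7. At 40 °C every pair is apart, and at 20 and 30 °C most pairs above the floor are closer, as the choice of these genes requires. Some were apart at a cooler temperature too, such as AT1G15010 at 20 °C (log2 difference -0.73) and AT1G60730 at 30 °C (-0.61).

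Several abundant transcripts were also among the lower ones. Of the 16 probe sets with a signal of at least 440, 7 had 1 annotated gene: STZ, AT1G74450 and AT2G27080, given above, and a further 4. AT4G27280, an EF-hand calcium-binding protein, had 1530.2 and 750.9 at 40 °C. AT3G57450 had 1215.9 and 555.0, AT4G29780 had 953.8 and 468.7, and AT4G24380 had 519.3 and 246.2. The log2 differences of these 4 were -1.03, -1.13, -1.03 and -1.08. At 30 °C they were between 0.04 and 0.25, with the mutant the higher of each pair. At 20 °C they were -0.69, -0.39, -0.51 and -0.15 in the same order, with the mutant the lower of each pair. These genes and others outside the 15 were picked after their values were seen, for their signal. Further genes past 2-fold included GSTU28, a tau glutathione transferase (-1.26), AT5G52050, a MATE efflux carrier (-1.23), and AT4G22212, a defensin-like protein (-1.37).

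Most of the lower probe sets, 61 of 106, had no gene listed in the annotation used here, and a further 2 had several. The largest difference of all was in this group. Probe set 253485_at had 35.9 and 42.0 at 20 °C, 342.7 and 366.5 at 30 °C, and 116.7 and 14.7 at 40 °C, a difference of 7.94-fold. Probe set 253259_at had 287.5 and 39.1 at 40 °C. Lists with few measured genes, given with their counts here, are limited in the same way: 0 of the heat shock factors and 0 of the salicylate and defence genes had an annotated probe set.

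The 20 and 30 °C arrays were not used to choose the lower set, so that its values there are separate measurements. Of the 106 probe sets, 104 differed more at 40 °C than at either other temperature, which the choice of the set favours; the exceptions were STZ and AT2G35390. At 20 °C the mutant was below wild type for 69 of them (65.1%), against 50.8% of all members, above it for 24, and equal for 13. The difference at 20 °C was -0.5 or lower for 24 of the 106 (22.6%), against 1.41% of all members, and 0.5 or higher for 4 (3.77%), against 2.05%. Split by signal at 20 °C, the shares were 18 of 85 with both signals under 110, against 2.27% of such members, and 6 of 21 with a signal of at least 110, against 0.796%. The median difference of the 106 was -0.15 at 20 °C. The excess at 20 °C was thus seen among faint and brighter probe sets alike.

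At 30 °C the same probe sets leaned the other way. The mutant was below wild type for 34 of 106 (32.1%), against 51.8% of all members, and above it for 68. The median difference was 0.06, and 4 of 106 (3.77%) lay at -0.5 or lower, against 3.49% of all members. At 0.5 or higher were 5 (4.72%), against 1.25%. Among the genes lower at 20 as well as at 40 °C, besides STZ, was AT3G10930, which encodes a short peptide of the IDA-like family. It had 71.3 and 31.5 at 20 °C, 67.6 and 87.0 at 30 °C, and 207.9 and 87.4 at 40 °C in wild type and mutant. The order of the genotypes was the same at 20 and 40 °C and turned at 30 °C. AT1G25400 had 62.0 and 30.6, 373.9 and 377.0, and 104.1 and 40.1, and AT2G24600, an ankyrin-repeat protein, had 59.1 and 39.2, 116.4 and 146.4, and 199.0 and 83.1. In AT1G25400 the genotypes were nearly equal at 30 °C, and in AT2G24600 the mutant was then the higher.

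**Figure D4:**
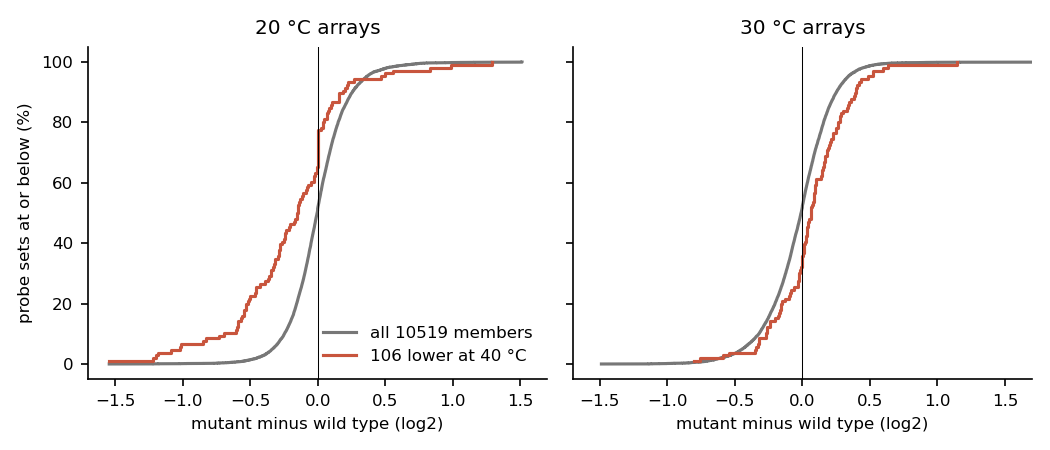
Cumulative share of probe sets (y axis, percent) by log2 difference of mutant minus wild type (x axis) on the 20 °C arrays (left) and 30 °C arrays (right), for all 10519 members and for the 106 lower at 40 °C. The curve of the 106 lies to the left of all members at 20 °C, with a median of -0.15, and slightly to the right at 30 °C, with a median of 0.06.

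Genes lower in the mutant at 40 °C were more often than other members genes with a higher signal at 30 than at 20 °C, in both genotypes. None of the 4 arrays behind this statement entered the 40 °C comparison, but the choice of the set was not neutral to it. Many of the 106 passed the signal minimum through the wild-type array at 40 °C alone, which favours genes raised by heat. The set was also fainter at 20 °C, with median signals of 44.9 and 40.1 against 126.3 and 125.5 over all members. The shares below were not matched for signal and are given as a description. In wild type, 55 of the 106 were at least 2-fold higher at 30 than at 20 °C (51.9%), against 8.19% of all members. In the mutant it was 65 of the 106 (61.3%), against 8.46%, and 52 (49.1%, against 6.98%) were so in both. At least 2-fold lower at 30 °C were 6 in wild type (5.66%, against 8.40%) and 5 in the mutant (4.72%, against 9.64%). The median log2 difference between 30 and 20 °C was 1.16 for wild type and 1.47 for the mutant, against -0.12 and -0.14 over all members. Wild type and mutant share no array in these comparisons, while the values at 30 and 20 °C of 1 genotype are shared with the differences between genotypes given above.

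The step to 40 °C separated the genotypes, as the choice of the set requires, and the following values are given as a description. The median signals of the 106 were 44.9 and 40.1 at 20 °C, 98.95 and 96.95 at 30 °C, and 167.35 and 64.3 at 40 °C. Against 20 °C, 78 were at least 2-fold higher at 40 °C in wild type and 43 in the mutant. Against 30 °C, 48 were at least 2-fold higher and 20 lower in wild type, and 15 higher and 41 lower in the mutant. These counts share the 40 °C arrays with the rule. The set therefore held genes still higher at 40 °C than at 30 °C in wild type, such as CML38, and genes already far below their 30 °C level in both genotypes, such as EXLA1.

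The 19 higher probe sets were fainter and had fewer features in common. The 3 genes with the largest differences, all at or under the floor in wild type at 40 °C, can be given only as bounds. THO7, of the THO complex that couples transcription to mRNA export, had 63.6 and 61.1 at 20 °C, 57.4 and 45.0 at 30 °C, and 10.3 and 61.1 at 40 °C, at least 4.46-fold higher in the mutant. The wild-type array at 40 °C was the odd one, and the other 5 lay between 45.0 and 63.6. AT3G16990, of a family of thiamin salvage enzymes, had 34.0 to 51.3 on the 20 and 30 °C arrays, and 11.9 and 56.9 at 40 °C, at least 4.15-fold higher. For AT1G63240 the mutant array at 40 °C was the odd one, with 65.5 against 2.1 to 13.8 on the other 5, at least 4.78-fold higher.

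AT1G60730, an aldo-keto reductase, had 67.5 and 51.8 at 20 °C, 37.6 and 24.6 at 30 °C, and 20.1 and 67.4 at 40 °C, 3.35-fold higher in the mutant. The wild-type signal thus went down with temperature, and the mutant at 40 °C stood at the level of wild type at 20 °C. AT4G10270, of a wound-responsive protein family known from low oxygen, had 22.2 and 58.9 at 40 °C, 2.65-fold higher. AT3G62220, a protein kinase, had 28.7 and 75.0 (2.61-fold), and AT1G34630 had 30.7 and 77.0 (2.51-fold). The next 4, AT4G32605, AT4G12490, AT1G47970 and AT3G58550, had log2 differences of 1.22, 1.19, 1.05 and 1.03. AT4G12490 and AT3G58550 belong to the lipid-transfer protein family. The last 4 of the 15 named genes, AT4G28240, AT3G45160, AT4G00500 and AT1G36620, were under 2-fold, between 0.95 and 0.98. Of the 15, all but AT3G58550, AT4G28240 and AT3G45160 passed the signal minimum through the mutant array alone, so that they had to be higher to be counted.

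For the higher set too, values that involve 40 °C share the arrays that chose it. The median signals were 63.6 and 58.8 at 20 °C, 44.0 and 45.0 at 30 °C, and 32.2 and 78.5 at 40 °C. Wild type was at least 2-fold lower at 40 than at 20 °C in 10 of 19 and 2-fold higher in 0, and the mutant was 2-fold lower in 1 of 19 and higher in 5. At 30 against 20 °C, 0 of 19 were at least 2-fold higher in wild type and 0 in the mutant, against 8.19% and 8.46% of all members. At 20 °C the mutant was above wild type for 9 and below for 10, and at 30 °C above for 7 and below for 11. QQS, a starch-related gene, was the only 1 of the 19 that did not differ more at 40 °C than at the other temperatures. Its difference of 1.07 at 40 °C stood beside 1.18 and 1.19 at 20 and 30 °C. The mutant was thus the higher of each of the 3 pairs by a similar amount.

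Heat shock protein genes, like most genes, stayed within 2-fold between the genotypes at 40 °C. All 9 measured small heat shock protein genes passed the signal minimum, and 0 were 2-fold lower or higher. Among genes past the minimum, 0.792% were 2-fold lower and 0.221% higher, so that a count of 0 in a list of 9 does not set it apart. AT1G53540 had 3252.4 and 2964.9 at 40 °C, against 13.0 and 7.3 at 20 °C. ATHSP22.0 had 1074.3 and 946.1, and AT2G19310 had 1796.7 and 1879.3. The differences ran from -0.38 for AT5G51440 to 0.06, with 7 below 0 and a median of -0.18, against 0.02 over the genes past the signal minimum. At 20 and 30 °C the median was -0.16 and 0.12. Of the 9 chaperones and co-chaperones, 0 were past 2-fold, 7 were below 0 and the median was -0.20. HSA32, needed for lasting heat tolerance, had 427.7 and 344.4 (-0.31), and the co-chaperone Hop2 had 263.0 and 298.8 (0.18).

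Genes of reactive oxygen metabolism showed no joint direction. The 4 measured ascorbate peroxidases and glutathione reductases, which remove hydrogen peroxide and keep glutathione reduced, had -0.14 (SAPX), -0.12 (GR), 0.04 (GR1) and 0.25 (TAPX), and a median of -0.04. Glutathione transferases of the tau and phi classes, enzymes that join glutathione to toxic compounds, had 13 measured genes. Of these, 6 were below 0, 6 above and 1 equal, with a median of 0.00. GSTU28, with 70.6 and 29.5, was 2-fold lower and passed the signal minimum through wild type alone. GSTU21, with 12.8 and 28.5, was 2-fold higher but under the minimum. Of all 13355 measured genes, 98 were 2-fold lower and 56 higher. Besides GSTU28, 7 genes passed the minimum and lay between -0.37 and 0.43, and the median of these 8 was 0.18. Of 3 genes of the oxidative response list that passed, AT1G19020 had 176.9 and 100.3 (-0.82), the alternative NADH dehydrogenase NDB2 had 80.9 and 118.5 (0.55) and GSTU25 had 0.40. Of the NADPH oxidase family, only 3 other members were measured, so that the level of the rest is not known here. These 3 were faint. AT4G25090 had 5.0 and 6.5, AT4G11230 had 12.9 and 11.5, and AT1G19230 had 24.2 and 18.8 at 40 °C, all under the signal minimum.

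**Figure D5:**
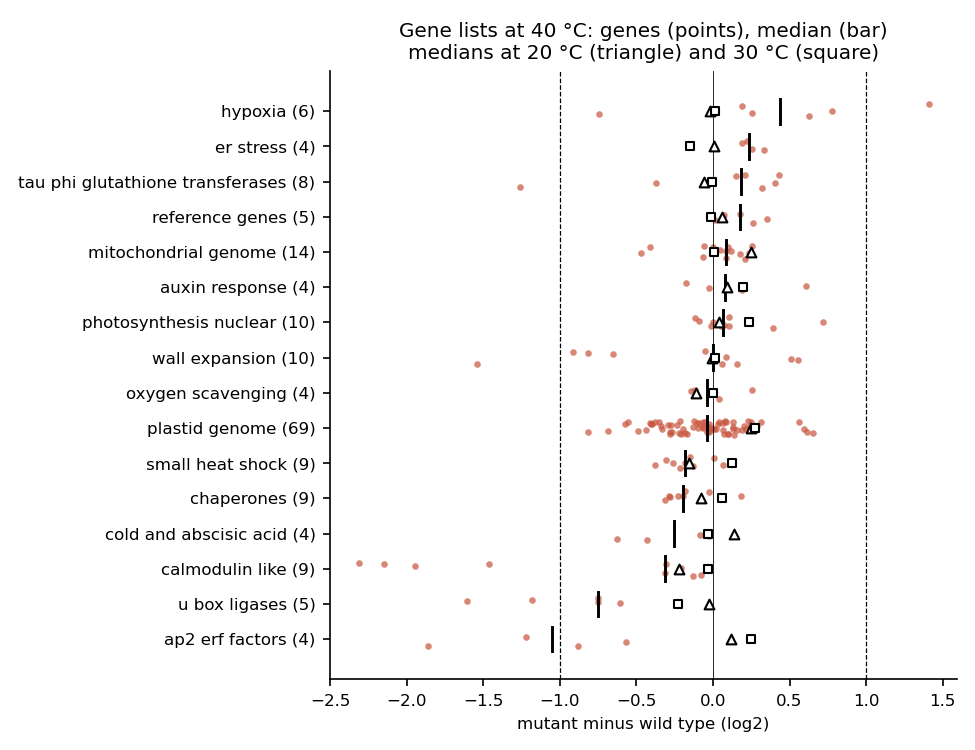
Log2 difference of mutant minus wild type at 40 °C for single genes (points) of each list with at least 4 members past the signal minimum, with the list's median at 40 °C (bar), 20 °C (triangle) and 30 °C (square) and the number of genes in brackets. The AP2/ERF, U-box and calmodulin-like lists hold 2 or more genes beyond -1, the wall, glutathione transferase and hypoxia lists hold 1 gene past 2-fold each, and the others stay within 2-fold at 40 °C.

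Other groups held few genes past 2-fold, as did the genes past the signal minimum as a whole. Of 12 measured genes known from low oxygen, 6 passed the signal minimum, 3 of them through the mutant array alone, and 1 of these was 2-fold higher, AT4G10270. AT5G66985 had 54.8 and 94.0 (0.78), AT1G19530 had 49.9 and 76.9 (0.62), and AT3G23170 had 130.8 and 78.0 (-0.75). The median was 0.14 over all 12, 0.44 over the 6, and -0.25 with a signal of at least 110 asked for, so no direction can be given for the list. All 4 genes of the endoplasmic reticulum stress list, among them the regulators BZIP28 and BZIP60, were above 0, with a median of 0.24 and a highest value of 0.33. The cold and abscisic acid genes were all 4 below 0, and COR15A, a chloroplast protein of freezing tolerance, had the largest difference, with 279.8 and 181.0 (-0.63). The 4 auxin genes had a median of 0.08, with GH3.3, which conjugates auxin, at 0.61, and the clock gene GI had 0.02. Of the 5 jasmonate genes measured, 0 passed the signal minimum.

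The medians of organelle and photosynthesis genes were near 0, while single genes differed more. The 14 mitochondrial genome genes, recognised by their names on the platform, had a median of 0.09, with 4 below 0 and 10 above, and ccb206 and nad4 were the furthest from 0, at -0.47 and -0.41. For nad6, a subunit of respiratory complex I, the signals were 2359.0 and 2529.8, and for cox1, of cytochrome oxidase, they were 2217.0 and 2217.1. The 69 plastid genome genes had a median of -0.04, against 0.25 at 20 °C and 0.27 at 30 °C, with 0 past 2-fold. Among them, psbN had 113.4 and 64.3 (-0.82), atpH had 1495.6 and 930.8 (-0.68), and the ribosomal protein genes rpl33 and rpl36 had 0.65 and 0.61. Of the 10 nuclear photosynthesis genes, 0 were past 2-fold, and the median was 0.06. The largest difference was in LHCB4.3, an antenna protein of photosystem II, with 103.6 and 170.4 (0.72). The 5 reference genes in common use for normalization lay between 0.01 for GAPC2 and 0.35 for PEX4, with a median of 0.18. Root and shoot markers had -0.11 for PYK10 and 0.12 and 0.22 for the root peroxidases AT5G17820 and AT3G01190.

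The lower genes lay on all 5 nuclear chromosomes. Of 42 with a chromosome in the TAIR10.1 annotation of RefSeq, 10, 8, 6, 8 and 10 were on chromosomes 1 to 5, which held 1365, 822, 1094, 793 and 1299 of the 5461 members with a chromosome. Within 500 kb of the disrupted gene on chromosome 1 were 55 members with a median difference of 0.02. Among them 1 was 2-fold lower, AT1G10340, an ankyrin-repeat protein (-1.14), and 0 were higher. Probe sets whose names mark possible binding of several transcripts made up 3 of the 106 lower ones (2.83%) and 3.89% of all members.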

How the data were processed

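Total RNA was hybridised to ATH1 arrays, and the deposited intensity per probe set was on a linear scale; the authors had scaled each array to a mean of 100 without the highest and lowest 2% of values, as the values show. The summary method is not given in the sources used here. Signals under 13.7, the 25th percentile over 6 arrays and no detection limit, were set to 13.7 before taking log2. Genotypes were compared by size at each temperature among probe sets with at least 55 on 1 of the 2 arrays. Genes came from the platform annotation (13513 probe sets with 1 gene, 503 with several, 8730 with none listed); RefSeq TAIR10.1 matched 13436 by gene number. For the 26 gene lists, the probe set with the highest mean stood for a gene. Up to 4 genes of each list were named by size, beside 15 genes each way. The members and lists were chosen with earlier results of these data known. Alternatives used R 4.3.3 and limma 3.58.1. Promoter motifs were not analysed here. Counting was tested on simulated data. Precision is limited by the number of arrays.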

Additional observations from a re-analysis of the deposited data

Results flagged for a closer look

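For a pair of probe sets lower in the mutant at 40 °C, the mutant was at least 2-fold higher at another temperature. The probe set 260399_at, with no gene listed, had 159.2 and 61.4 (wild type, mutant) at 40 °C (log2 difference -1.37) and 14.5 and 35.4 at 20 °C (1.29). AT2G35390, a phosphoribosyl pyrophosphate synthase, had 66.0 and 32.0 at 40 °C (-1.04) and 39.7 and 88.0 at 30 °C (1.15). Each value rests on 1 array a side, and the difference between temperatures was not tested.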

How the results depend on the processing

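Against 106 lower and 19 higher probe sets, quantile normalization gave 114 and 26, median scaling 103 and 20, and cyclic loess, a floor at the 40th percentile and no floor each gave 106 lower and 19 higher. With log2(value + 16) the counts were 70 lower and 8 higher, with a signal of at least 110 they were 70 and 4, and with 55 on both arrays 60 and 3. Without a signal minimum they were 208 and 88, at 3-fold 22 and 5, and with 1 probe set per gene 43 and 12. Each of these alternatives gave more lower than higher probe sets at 40 °C. By the same settings the lower counts at 20 and 30 °C were at most 45 and 92, both without a signal minimum, where 71 and 27 were higher. Without that minimum, 37.5% of the lower set in wild type and 39.9% in the mutant were higher at 30 °C, and 14.4% were also lower at 20 °C. The hypoxia median was -0.245 with a signal of at least 110, 0.192 with 55 on both arrays and 0.137 with no minimum, and the U-box median was -1.18 with at least 110, against -0.75 over the 5 genes past the minimum of 55. These settings test other numbers of genes. Of 30 named genes past 2-fold, 21 were so in every setting that gave a value. With log2(value + 16) the other 9 lay between -0.995 for PUB22 and 0.994 for AT1G34630, with GSTU28 at -0.929 among them. No array could be left out and no paired analysis was possible because each group has 1 array.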
